A study of Mus musculus with 15 samples.

Results

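Notch receptors, ligands and target genes were followed across 4 groups of cultured mouse lung cells, with and without the lysyl oxidase inhibitor β-aminopropionitrile (BAPN). The 10 genes were Notch1, Notch2, Notch3, Notch4, Jag1, Jag2, Dll1, Hes1, Hey1 and Heyl, out of 22273 gene symbols with a probe. They were chosen by name, as every non-control probe whose listed gene was among these 10, which gave 13 probes on 22 spots of each array. All arrays were Agilent 1-colour whole-genome arrays of 60-base probes, hybridised with total RNA labelled with Cy3.

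The groups were primary lung fibroblasts with vehicle (1x PBS, 4 arrays), primary lung fibroblasts with BAPN at 1 mM (3 arrays), primary alveolar epithelial type II (ATII) cells with vehicle (4 arrays) and ATII cells with BAPN at 1 mM (4 arrays). Exposure lasted 24 h in every group. Fibroblasts had been passaged at least 3 times and were starved for 24 h first, whereas ATII cells had been kept for 3 days at an air-liquid interface and had grown to a monolayer. Cell type and culture method therefore cannot be told apart in any comparison of the cell types. The labels give no mouse strain, genotype or age, nor the origin of the replicates, so p-values rest on the spread between these arrays, and that spread may be only technical. BAPN fibroblast replicate 3 and BAPN ATII replicate 2 were not analysed here. The BAPN ATII array without a replicate number, labelled as a replacement, is called replicate 5.

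Notch receptors are single-pass membrane proteins that bind Jagged or Delta-like ligands on a neighbouring cell. Binding exposes the receptor to cleavage by an ADAM protease and then by gamma-secretase, and the freed intracellular domain joins the DNA-binding protein RBPJ and a Mastermind coactivator to switch on Hes and Hey genes, which encode transcriptional repressors. In the lung, Notch signalling is known for its part in airway cell fate and, through Notch2, in alveolar formation, while Notch3, Jag1, Hey1 and Heyl are also genes of vascular smooth muscle and pericytes.

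Upstream sequence from RefSeq (GRCm38.p6) was available for 7 of the 10 genes, in 8 windows of the 250 bases before a start site, all but Hes1, Hey1 and Heyl. None of the 8 windows held the core of the RBPJ site, TGGGAA or its reverse TTCCCA, which 21.6% of 32851 promoters of the same length held. The GC box, GGGCGG or its reverse CCGCCC, was searched after that, on both strands, and 32.7% of all promoters held it. It was found 5 times each in the windows of Notch1, Notch2 and Jag2 and 4 times in that of Notch3, and it was not found in those of Jag1, Dll1 and Notch4. The 4 windows shown lie outside the transcribed gene. They were chosen because Jag1 and Dll1 were the ligands measured in both cell types that were higher in ATII cells, and Notch1 and Notch2 were receptors that were not. Capitals mark the GC box, and each line runs 5′ to 3′ on the strand of the gene. The windows lie at chr2:137116521-137116770 (minus strand) for Jag1, chr17:15376933-15377182 (minus) for Dll1, chr2:26503823-26504072 (minus) for Notch1 and chr3:98013288-98013537 (plus) for Notch2.
Jag1: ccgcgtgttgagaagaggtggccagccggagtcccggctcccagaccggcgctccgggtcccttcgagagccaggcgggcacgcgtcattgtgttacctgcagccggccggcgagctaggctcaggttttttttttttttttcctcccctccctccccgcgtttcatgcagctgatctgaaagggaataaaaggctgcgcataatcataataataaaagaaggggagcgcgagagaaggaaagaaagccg
Dll1: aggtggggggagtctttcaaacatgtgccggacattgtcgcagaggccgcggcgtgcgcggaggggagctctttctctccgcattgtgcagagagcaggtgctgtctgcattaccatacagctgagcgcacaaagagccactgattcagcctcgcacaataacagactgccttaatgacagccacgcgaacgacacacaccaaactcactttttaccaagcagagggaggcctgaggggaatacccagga
Notch1: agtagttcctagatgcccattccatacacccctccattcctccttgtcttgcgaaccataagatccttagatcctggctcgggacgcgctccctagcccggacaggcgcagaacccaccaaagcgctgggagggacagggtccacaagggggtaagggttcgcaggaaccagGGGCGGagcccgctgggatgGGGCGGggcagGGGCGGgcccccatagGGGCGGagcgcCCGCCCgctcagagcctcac
Notch2: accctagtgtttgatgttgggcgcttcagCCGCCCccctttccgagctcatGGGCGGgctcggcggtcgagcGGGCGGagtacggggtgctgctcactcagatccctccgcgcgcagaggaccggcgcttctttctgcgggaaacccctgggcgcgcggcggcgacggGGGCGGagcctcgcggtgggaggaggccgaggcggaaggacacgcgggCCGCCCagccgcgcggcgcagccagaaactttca
The GC content was 57.2% for Jag1, 56.0% for this Dll1 window, 66.0% for Notch1 and 72.0% for Notch2, against a median of 52.4% over all promoters. A match is a description of letters and says nothing on binding.

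Levels below are log2 values relative to the 75th percentile of the same array, so 0 is that percentile and 1 unit is a 2-fold difference. Between 65.2% and 71.2% of the spots of each array were well above background, and none was saturated. Some epithelial and ATII markers were confined to the ATII arrays, and others were measured in both cell types. Cdh1, which encodes E-cadherin, averaged 4.35 ± 0.37 (SD, n = 4) in vehicle ATII cells and was below background on all 7 fibroblast arrays, as were Nkx2-1 and Sftpb. Slc34a2, a transporter of ATII cells, was below background on every array of both cell types. Krt8, Krt18, Krt19, Cldn4, Cldn7 and Esrp1 were well above background on every fibroblast array, although all 8 epithelial genes were higher in vehicle ATII cells by limma. Of 8 ATII genes tested, 6 were higher and 0 lower. Abca3 averaged 2.67 in vehicle ATII cells against 2.57 in vehicle fibroblasts, and Etv5 3.69 against 3.53. Of 11 fibroblast genes, 7 were lower in vehicle ATII cells by limma and 0 higher, with a median change of -0.84; Prrx1 was 8.87-fold, Thy1 7.44-fold and Tcf21 5.18-fold lower, while Col1a1 averaged 7.84 against 7.77 in vehicle fibroblasts. Of 7 smooth muscle and pericyte genes, 3 were lower (Myh11 7.41-fold, Cnn1 1.88-fold, Acta2 1.35-fold) and 2 higher (Des 2.47-fold, Cspg4 2.26-fold). These genes were picked from the lists after their values were seen. With bulk RNA, a difference in the number of cells of a type and a difference in RNA per cell cannot be told apart.

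**Figure D1:**
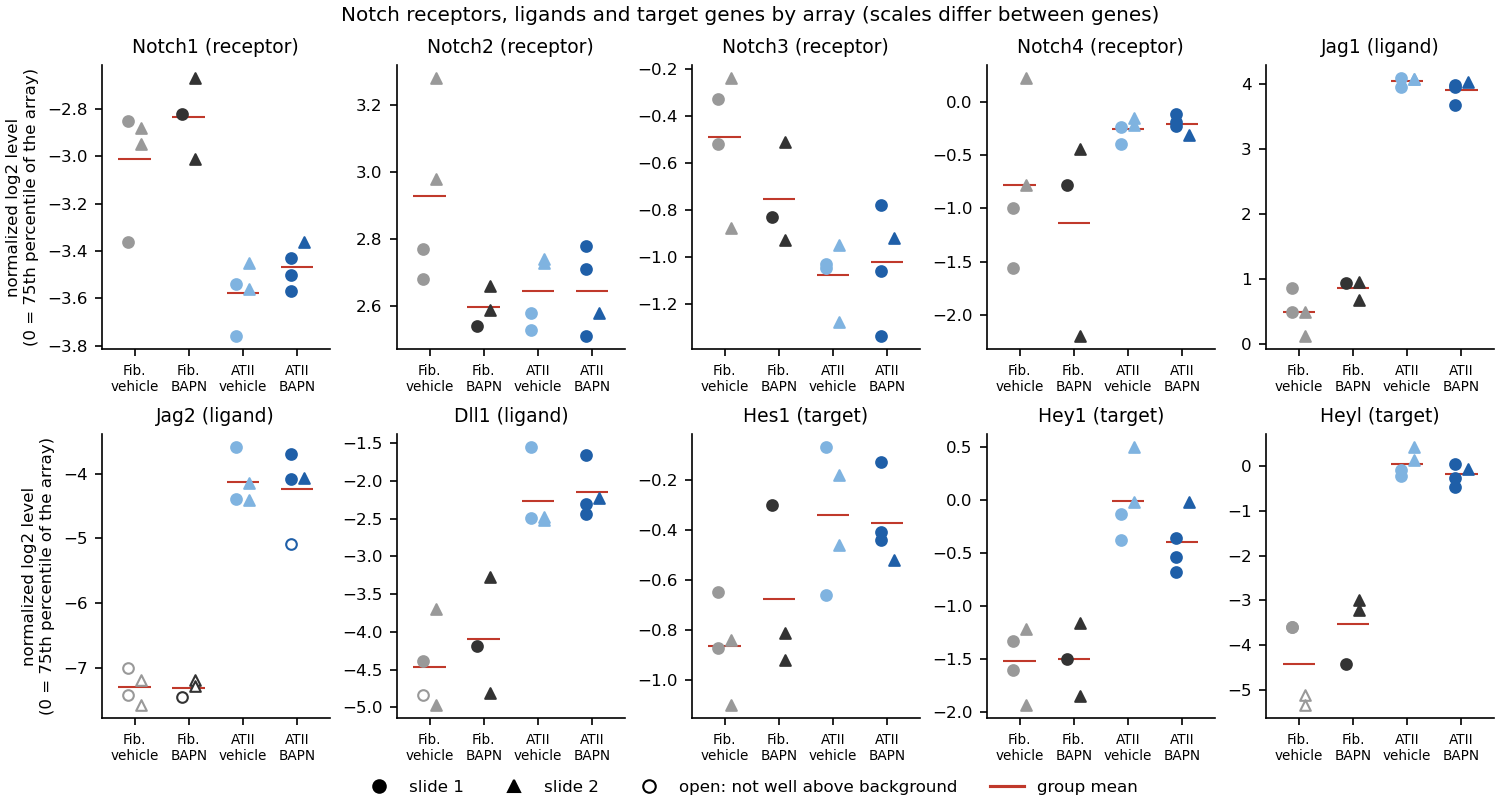
Normalized log2 level (y axis, 0 = 75th percentile of the array) of each of the 10 genes on each of the 15 arrays, by group; circles are slide 1, triangles slide 2, open symbols not well above background, and red bars group means. Jag1, Jag2, Dll1, Hey1 and Heyl were higher on every ATII array than on every fibroblast array, Jag2 being below background on every fibroblast array. The share of all features set apart in this way was not counted. The 2 open Heyl symbols are fibroblast vehicle replicates 2 and 4.

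In vehicle cultures, 8 of the 10 genes differed between ATII cells and fibroblasts at an adjusted p under 0.05 (limma across all features, Benjamini-Hochberg), where 31.3% of the 32470 features tested did. All 3 ligands and all 3 target genes were higher in ATII cells, and 2 of the 4 receptors, Notch1 and Notch3, were lower. Jag2, below background in fibroblasts, entered the test only through the ATII arrays where it was high; without it, 7 of 9 genes passed. The background was 14.5% higher and 16.8% lower, and the median change was 1.02 over the 10 genes and -0.13 over all features. Markers of other cell types also differed: the summed level of 8 epithelial genes ranged from 2.23 to 4.30 in vehicle fibroblasts and from 9.37 to 9.79 in vehicle ATII cells. A sum weights the brightest probes of a list most. That of 11 fibroblast genes, 7 of them lower as given above, ranged from 9.62 to 10.12 and from 9.34 to 9.83, that of 7 smooth muscle and pericyte genes from 10.34 to 10.83 and from 9.91 to 10.29, and that of 9 leukocyte genes from 6.19 to 6.47 and from 4.86 to 5.62. Of 10 endothelial genes, Tie1 and Erg were below background on all 15 arrays, and the summed level ranged from 3.48 to 3.84 in vehicle fibroblasts and from 3.70 to 4.22 in vehicle ATII cells. The summed level of 10 ATII genes ranged from 5.0 to 5.19 in vehicle fibroblasts and from 5.50 to 5.64 in vehicle ATII cells, that of 6 airway genes from 1.98 to 2.53 and from 2.29 to 3.76, and that of 6 alveolar type I genes from 6.22 to 6.63 and from 6.13 to 6.54. Of the 5 type I genes tested, 4 were higher in vehicle ATII cells (Aqp5 27.6-fold, Ager 23.3-fold, Clic5 8.18-fold, Hopx 3.53-fold), and Pdpn changed by -0.14 (limma adjusted p = 0.609). Of the 5 airway genes tested, 3 were higher and 0 lower in vehicle ATII cells, with a median change of 4.14. The part of all these cell types in the differences of the Notch genes was not tested.

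Jag1, a ligand of the Jagged class, is measured by a single probe at chr2:136907433-136907492 (mm9, minus strand). Its level in vehicle fibroblasts was 0.86, 0.12, 0.50 and 0.49 on replicates 1 to 4, and in vehicle ATII cells it was 3.96, 4.07, 4.09 and 4.07. BAPN-treated fibroblasts had 0.94, 0.68 and 0.96 on replicates 1, 2 and 4, and BAPN-treated ATII cells had 3.67, 3.95, 4.03 and 3.99 on replicates 1, 3, 4 and 5. Every ATII array was thus above every fibroblast array, and the ATII arrays lay close together. Jag1 was 11.8-fold higher in ATII cells with vehicle (log2 change 3.56 ± 0.14 (SE), limma adjusted p = 1.36e-09) and 8.28-fold higher with BAPN (3.05 ± 0.16, limma adjusted p = 1.24e-08). Within slide 1 the vehicle difference was 3.35 and within slide 2 it was 3.76.

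Jag2, the second Jagged ligand, has 1 probe (chr12:114146887-114146946, mm9, minus strand) that was not well above background on any of the 7 fibroblast arrays, so its fibroblast level is only bounded from above. Vehicle ATII cells had -3.59, -4.14, -4.39 and -4.41 on replicates 1 to 4, all well above background. BAPN-treated ATII cells had -3.70, -4.08, -4.07 and -5.09 on replicates 1, 3, 4 and 5, the last of which was not well above background. Against the lowest signal that counted as well above background, Jag2 in ATII cells was higher by at least 2.03-fold with vehicle (limma adjusted p = 9.29e-07) and by at least 2.80-fold with BAPN (limma adjusted p = 3.18e-06). Both p-values set ATII signals against fibroblast signals below background, so they do not measure the size of the difference. The bound compares the brighter group's mean with the higher of the fibroblast probe's own signal and the dimmest signal above background, both as normalized log2 values. The measured signals averaged -7.30 ± 0.26 (SD, n = 4) in vehicle fibroblasts and -4.13 ± 0.38 (SD, n = 4) in vehicle ATII cells. Under the normexp correction, which compresses dim signals, the measured difference was 0.55 with vehicle (limma adjusted p = 0.00377) and 0.71 with BAPN (limma adjusted p = 0.00123), below the bound.

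Dll1 encodes a Delta-like ligand, and its main probe (chr17:15504623-15504682, mm9, minus strand) was printed on 10 spots of each array. Vehicle fibroblasts had -4.83, -3.69, -4.38 and -4.97 on replicates 1 to 4, with replicate 1 not well above background, and BAPN-treated fibroblasts had -4.18, -3.27 and -4.81. Vehicle ATII cells had -1.55, -2.52, -2.49 and -2.48, and BAPN-treated ATII cells had -1.65, -2.30, -2.22 and -2.44 on replicates 1, 3, 4 and 5. The cell types did not overlap, although replicate 1 stood above the other arrays in both ATII groups. Dll1 was 4.62-fold higher in ATII cells with vehicle (log2 change 2.21 ± 0.36 (SE), limma adjusted p = 0.000322) and 3.81-fold higher with BAPN (1.93 ± 0.39, limma adjusted p = 0.00185). The probe was close to background in fibroblasts, and the size depended on the background correction: under the normexp correction the vehicle change was 0.97 (limma adjusted p = 0.000185).

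The 10 Dll1 spots gave repeated measurements of the same labelled RNA. The vehicle difference between the cell types was above 0 at 10 of 10 spots, from 1.69 to 2.67 with a median of 2.24, and with BAPN it was above 0 at 10 of 10, from 1.57 to 2.30 with a median of 1.92. The SD between spots of 1 array ranged from 0.07 to 0.97 with a median of 0.15. It ranged from 0.07 to 0.15 on ATII arrays and from 0.19 to 0.97 on fibroblast arrays. The highest was that of vehicle fibroblast replicate 4, with spots from -6.81 to -3.72. On that array and on BAPN fibroblast replicate 4, 5 of 10 spots were well above background. A further Dll1 probe (chr17:15513726-15513785, mm9, minus strand), which lies farther upstream on that strand, did not show the difference. It averaged -4.36 ± 0.19 (SD, n = 4) in vehicle fibroblasts and -4.59 ± 0.29 (SD, n = 4) in vehicle ATII cells, and the mean of both probes changed by 0.99 (limma adjusted p = 0.00749). With BAPN that probe was well above background on 1 of 3 fibroblast arrays and 2 of 4 ATII arrays.

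**Figure D2:**
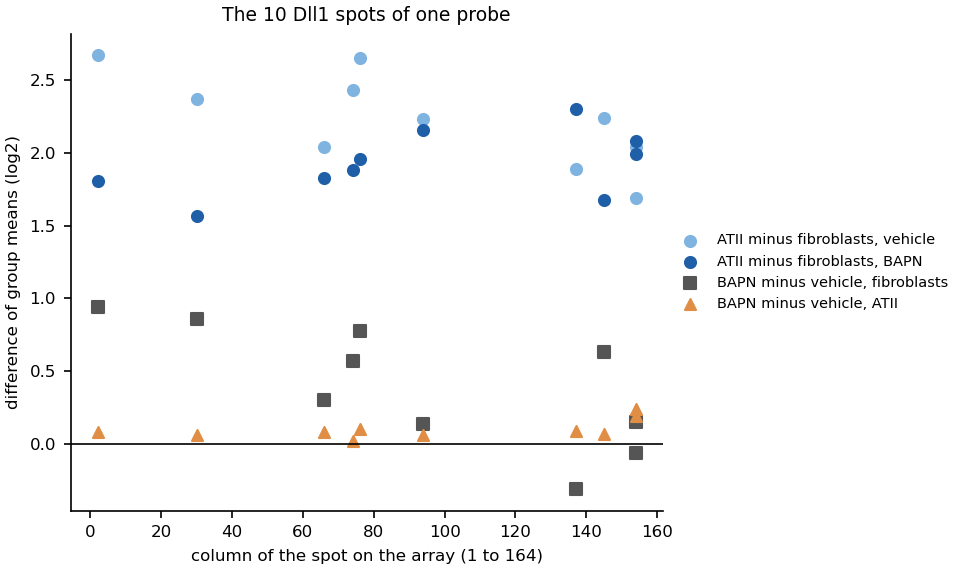
Difference of group means (log2, y axis) at each of the 10 spots of the main Dll1 probe, against the column of the spot on the array (x axis), for the 4 comparisons. The cell type differences lie between 1.57 and 2.67 at all 10 spots, whereas BAPN minus vehicle in fibroblasts runs from -0.31 to 0.94.

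Heyl encodes a Hes-related repressor and is measured by 1 probe (chr4:122926975-122927034, mm9, plus strand). Vehicle ATII cells had -0.23, 0.13, -0.09 and 0.43 on replicates 1 to 4, and BAPN-treated ATII cells had -0.46, -0.27, -0.06 and 0.06 on replicates 1, 3, 4 and 5. Vehicle fibroblasts had -3.60, -5.12, -3.60 and -5.35, with replicates 2 and 4 not well above background, and BAPN-treated fibroblasts had -4.42, -3.21 and -2.99 on replicates 1, 2 and 4. The ATII arrays were all higher than the fibroblast arrays, and the fibroblast arrays spread far more widely than the ATII arrays. Heyl was 22.2-fold higher in ATII cells with vehicle (log2 change 4.47 ± 0.41 (SE), limma adjusted p = 2.17e-06) and 10.2-fold higher with BAPN (3.36 ± 0.44, limma adjusted p = 6.84e-05). The vehicle change was 3.44 within slide 1 and 5.52 within slide 2, both dim fibroblast arrays being on slide 2, and it was 2.77 under the normexp correction (limma adjusted p = 2.06e-08).

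Hey1, a second Hes-related repressor (probe at chr3:8663432-8663491, mm9, minus strand), was well above background on every array. Vehicle fibroblasts had -1.61, -1.22, -1.33 and -1.94 on replicates 1 to 4 and vehicle ATII cells -0.38, -0.02, -0.13 and 0.50. With BAPN, fibroblasts had -1.50, -1.16 and -1.85 on replicates 1, 2 and 4, and ATII cells had -0.68, -0.36, -0.02 and -0.54 on replicates 1, 3, 4 and 5. No fibroblast array reached the lowest ATII array. Hey1 was 2.86-fold higher in ATII cells with vehicle (log2 change 1.52 ± 0.23 (SE), limma adjusted p = 0.000163) and 2.15-fold higher with BAPN (1.10 ± 0.24, limma adjusted p = 0.00374).

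Hes1, the most widely used readout of Notch activity (probe at chr16:30067820-30067879, mm9, plus strand), differed least of the 3 target genes. Vehicle fibroblasts had -0.87, -1.10, -0.65 and -0.84 on replicates 1 to 4 and vehicle ATII cells -0.07, -0.18, -0.66 and -0.46, so that the groups overlapped at 1 array on each side. Hes1 was 1.44-fold higher in vehicle ATII cells (log2 change 0.52 ± 0.17 (SE), limma adjusted p = 0.0313). The call was lost without vehicle fibroblast replicate 1, 2 or 4 or vehicle ATII replicate 1 or 2, with limma adjusted p of 0.0607, 0.0921, 0.0518, 0.0947 and 0.0878. With BAPN, Hes1 levels were -0.30, -0.92 and -0.81 in fibroblasts and -0.41, -0.44, -0.52 and -0.13 in ATII cells, and the difference of 0.30 ± 0.18 (SE) missed the threshold (limma adjusted p = 0.257).

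The 4 receptors all differed by less than 1 log2 unit between the cell types. Notch1 (probe at chr2:26319440-26319499, mm9, minus strand) had -3.36, -2.88, -2.85 and -2.95 in vehicle fibroblasts and -3.54, -3.45, -3.76 and -3.56 in vehicle ATII cells, replicates 1 to 4. With BAPN the levels were -2.82, -3.01 and -2.67 in fibroblasts and -3.50, -3.57, -3.36 and -3.43 in ATII cells. Within each treatment, all ATII arrays were below all fibroblast arrays. Across treatments, BAPN-treated ATII replicate 4 and vehicle fibroblast replicate 1 both had -3.36. Notch1 was 1.48-fold lower in vehicle ATII cells (log2 change -0.56 ± 0.13 (SE), limma adjusted p = 0.00399) and 1.56-fold lower with BAPN (-0.64 ± 0.14, limma adjusted p = 0.00328). The vehicle call was lost with quantile normalization (-0.36, limma adjusted p = 0.0896), and the BAPN call with the normexp correction (-0.22, limma adjusted p = 0.197). The vehicle call was also lost in the authors' deposited series table (limma adjusted p = 0.0878) and on slides 1 and 2 alone (limma adjusted p = 0.0879 and 0.0748). With the mean of the Notch1 probes both calls were lost (-0.53 with vehicle, limma adjusted p = 0.0942, and -0.06 with BAPN, limma adjusted p = 0.904). A further Notch1 probe (chr2:26314630-26314689, mm9, minus strand) was not well above background on any of the 15 arrays.

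Notch3, the receptor known from vascular smooth muscle (probe at chr17:32257848-32257907, mm9, minus strand), was also lower in vehicle ATII cells. Its level was -0.33, -0.88, -0.52 and -0.24 in vehicle fibroblasts and -1.05, -1.28, -1.03 and -0.95 in vehicle ATII cells, without overlap. Notch3 was 1.50-fold lower in vehicle ATII cells (log2 change -0.58 ± 0.16 (SE), limma adjusted p = 0.0139). With BAPN it was -0.83, -0.93 and -0.51 in fibroblasts and -0.78, -1.34, -0.92 and -1.06 in ATII cells, the arrays overlapped, and the difference of -0.27 ± 0.18 (SE) missed the threshold (limma adjusted p = 0.289). Notch3 and Hes1 were thus past the threshold with vehicle and not with BAPN, but the test of the difference of the effects gave limma adjusted p of 0.587 and 0.741.

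Notch2 and Notch4 did not pass the threshold in either comparison of the cell types. Notch2 (probe at chr3:97953914-97953973, mm9, plus strand) had 2.77, 2.98, 2.68 and 3.28 in vehicle fibroblasts and 2.53, 2.74, 2.58 and 2.73 in vehicle ATII cells, a difference of -0.28 (95% interval -0.56 to -0.01, limma adjusted p = 0.115). With quantile normalization the vehicle difference of -0.34 was past the threshold (limma adjusted p = 0.0346). With BAPN the ATII arrays had 2.71, 2.51, 2.58 and 2.78, and the difference was 0.05 (95% interval -0.25 to 0.35). A further Notch2 probe (chr3:97951233-97951292, mm9, plus strand) averaged -2.25 ± 0.12 (SD, n = 4) in vehicle fibroblasts and -2.45 ± 0.14 (SD, n = 4) in vehicle ATII cells.

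Notch4, a receptor best known from endothelium (probe at chr17:34725120-34725179, mm9, plus strand), spread widely in fibroblasts and little in ATII cells. Vehicle fibroblasts had -1.0, -0.78, -1.56 and 0.22 and BAPN-treated fibroblasts -0.78, -2.20 and -0.44, whereas the 8 ATII arrays lay between -0.40 and -0.12. The SD was 0.74 (n = 4) and 0.94 (n = 3) in fibroblasts with vehicle and BAPN, and 0.11 (n = 4) and 0.079 (n = 4) in ATII cells. The difference between cell types was 0.53 with vehicle (95% interval -0.27 to 1.32) and 0.93 with BAPN (0.07 to 1.79), with limma adjusted p of 0.331 and 0.101. The vehicle difference was 0.96 and past the threshold on slide 1 alone (limma adjusted p = 0.0167), and it was 0.10 on slide 2. Without BAPN fibroblast replicate 4 the BAPN difference was 1.28 and past the threshold (limma adjusted p = 0.0429).

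**Figure D3:**
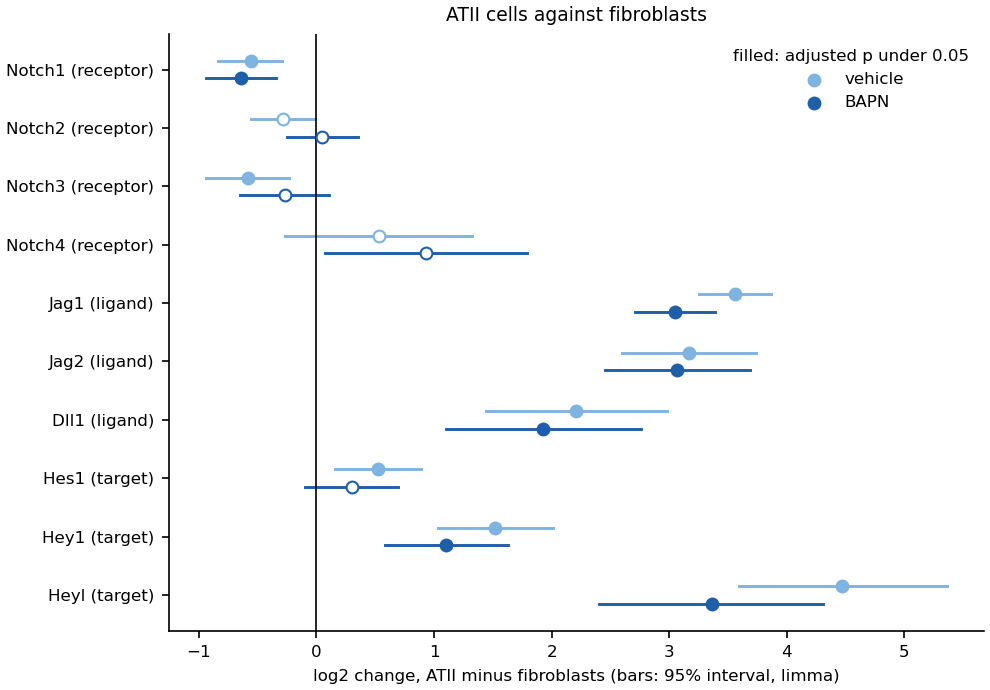
Log2 change, ATII minus fibroblasts (x axis), of the 10 genes with vehicle (light) and BAPN (dark); bars are 95% intervals from limma and filled points have an adjusted p under 0.05. The ligands and Hey1 and Heyl lie to the right of 0 in both treatments, while Notch1 lies to the left; Jag2 is drawn at its measured difference, although its fibroblast level was below background.

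With BAPN in both cell types, 6 of the 10 genes differed between ATII cells and fibroblasts, 5 higher and 1 lower, where 29.3% of 32268 features did (13.4% higher, 15.9% lower). The 5 were Jag1, Jag2, Dll1, Hey1 and Heyl, and the lower gene was Notch1. As with vehicle, Jag2 was below background in fibroblasts and entered the test only through the ATII arrays where it was high. Without it, the genes past the threshold were Jag1, Dll1, Hey1 and Heyl (higher) and Notch1 (lower). All 5 genes that were higher in ATII cells with BAPN had also been higher with vehicle. The labels do not say whether BAPN and vehicle arrays share cell preparations, and both comparisons come from the same fit. They may therefore not be independent of each other. The median change was 1.02 over the 10 genes and 0.01 over all features.

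Other genes of the pathway, 52 in a list by role, did not share a single direction. With vehicle, 13 were higher and 10 lower in ATII cells among the 49 tested, with a median change of 0.03. With BAPN, 11 were higher and 9 lower among 49, with a median of 0.04. Both shares called were above the 31.3% and 29.3% of all features, a difference that was not tested.

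Among the other ligands, Dlk1, a non-canonical ligand, was 2.54-fold lower in vehicle ATII cells (log2 change -1.34 ± 0.20 (SE), limma adjusted p = 0.000152) and 2.16-fold lower with BAPN. Dlk2 was 1.31-fold lower with vehicle, where 0 of the 4 tested were higher. Dll4, a canonical Delta-like ligand, was 2.07-fold higher in ATII cells with BAPN (limma adjusted p = 0.00258), its probe being well above background on 2 of 3 BAPN fibroblast arrays. Of 6 genes that modify the receptor in the secretory pathway, Furin, which cuts the receptor precursor, was 1.74-fold higher with vehicle and 1.70-fold higher with BAPN. Pofut1, which adds O-fucose to the receptor, was 1.52-fold and 1.60-fold lower, and Rfng, a Fringe glycosyltransferase, 1.30-fold and 1.34-fold lower.

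Of 8 cleavage genes tested, Adam10, which makes the cut at the cell surface, was 1.49-fold higher and Psen2, a gamma-secretase subunit, 1.54-fold lower with vehicle. With BAPN, Psen2 was 1.44-fold lower, Aph1b, a further gamma-secretase subunit, 1.54-fold lower, and Ncstn, which encodes nicastrin, 1.31-fold higher. Of 12 genes of the nuclear complex, Rbpj, the DNA-binding partner of all Notch receptors, was 2.66-fold lower in vehicle ATII cells (log2 change -1.41 ± 0.14 (SE), limma adjusted p = 4.98e-06) and 2.19-fold lower with BAPN (-1.13 ± 0.15, limma adjusted p = 8.58e-05). With vehicle, Rbpj was thus lower in the cells in which the 3 target genes were higher. The Groucho-type corepressor Tle3 was 1.72-fold higher with vehicle and 1.34-fold higher with BAPN, the demethylase Kdm5a was 1.51-fold higher with vehicle, and the coactivator Maml1 was 1.28-fold lower with BAPN.

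In the list on trafficking and turnover, 5 of 13 were higher and 2 lower with vehicle. Dtx1, which encodes a Deltex ubiquitin ligase, was not well above background in ATII cells and was at least 2.57-fold lower there with vehicle (limma adjusted p = 0.00147) and at least 2.51-fold lower with BAPN (limma adjusted p = 0.00393). Its relatives Dtx3l and Dtx4 were 2.80-fold and 2.04-fold higher with vehicle, and 2.84-fold and 2.18-fold higher with BAPN. Of 6 other Hes, Hey and target genes tested, Nrarp, which encodes a feedback inhibitor of Notch induced by Notch, was at least 7.09-fold higher in vehicle ATII cells (limma adjusted p = 2.53e-07) and at least 9.16-fold higher with BAPN (limma adjusted p = 2.63e-06), with fibroblasts below background. Like Jag2, Nrarp and Dtx1 entered the test only through the cell type in which they were high. Hes6 was 1.63-fold higher with vehicle and 1.99-fold higher with BAPN, Hes2 was 1.45-fold lower with vehicle, and Hes7 was 1.56-fold higher with BAPN.

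**Figure D4:**
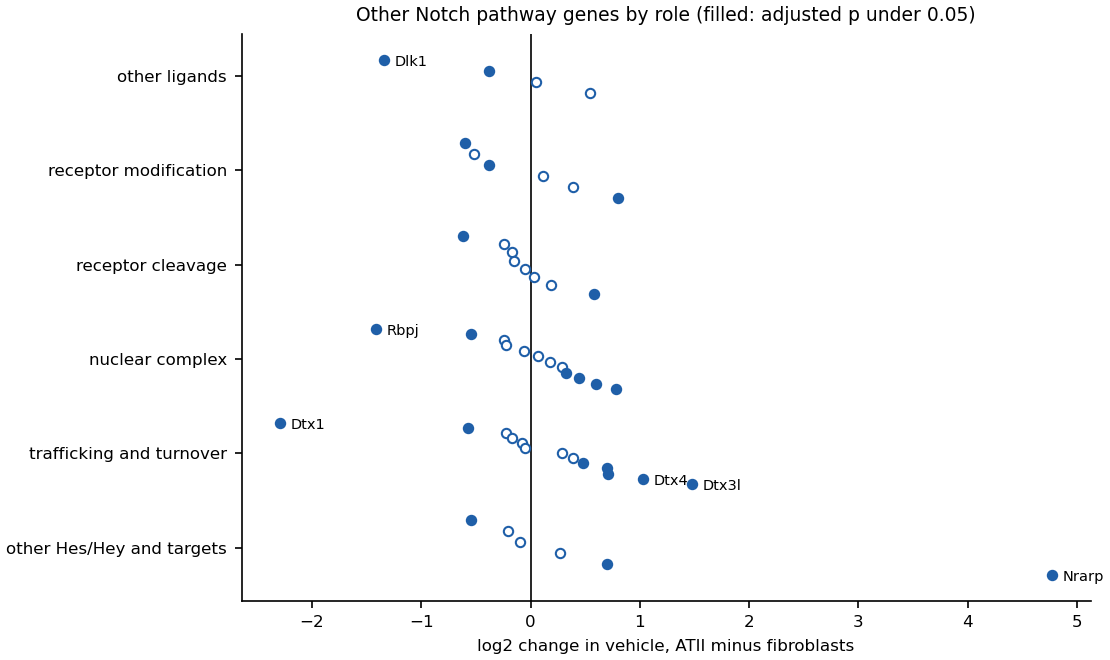
Log2 change with vehicle, ATII minus fibroblasts (x axis), of the 49 other pathway genes tested, in rows by role; each point is a gene, and filled points have a limma adjusted p under 0.05. Dtx1, Rbpj and Dlk1 lie to the left of -1, and Dtx3l, Dtx4 and Nrarp to the right of 1. Nrarp and Dtx1 are drawn at measured differences, although 1 cell type was below background.

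In fibroblasts, BAPN against vehicle gave 0 of the 9 genes tested past the threshold by limma, where 13.4% of 32255 features were (2.45% higher, 10.9% lower). Of the features past the threshold, 18.3% were higher with BAPN, and 30.8% after correction for spot position. At an unadjusted p under 0.05 there were 2 genes, Notch2 and Jag1, and 8752 features. Jag2 was below background in both groups and was not tested. Notch2 went from 2.77, 2.98, 2.68 and 3.28 with vehicle to 2.54, 2.66 and 2.59 with BAPN, so that each BAPN array was below each vehicle array. The change was -0.33 ± 0.14 (SE, limma adjusted p = 0.136). It was past the threshold with quantile normalization (-0.42, limma adjusted p = 0.0495) and in the authors' deposited series table (-0.42, limma adjusted p = 0.0489), which is quantile normalized too. After correction for spot position it was also past it (-0.58, limma adjusted p = 0.0497). There vehicle replicate 4 stood at 3.82 and the other vehicle arrays at 2.60, 2.65 and 2.68. Notch2 missed the threshold with the normexp correction (-0.18, limma adjusted p = 0.372) and with the mean of its probes (-0.35, limma adjusted p = 0.133). The Notch2 change was -0.19 within slide 1 and -0.50 within slide 2.

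Jag1 in fibroblasts was 0.37 ± 0.16 (SE) higher with BAPN on the log2 scale, and this missed the threshold (limma adjusted p = 0.146), the groups overlapping. Without vehicle fibroblast replicate 1 the change was 0.49 and passed it (limma adjusted p = 0.0455). Heyl changed by 0.87 ± 0.44 (limma adjusted p = 0.226), by -0.82 within slide 1 and by 2.13 within slide 2. Over the 9 genes, 6 of the 95% intervals lay within a 2-fold change in either direction, and the widest bounds were -1.22 for Notch4 and 1.83 for Heyl.

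The position of a spot on the array moved with this comparison. Of the features whose spots lay in columns 1 to 82, 1.5% were past the threshold, and in columns 83 to 164, 25.1% were. Notch2 lies in column 50, Notch4 in 21, Hes1 in 5, Hey1 in 3 and Heyl in 17, while Jag1 lies in 102, Notch1 in 109 and Notch3 in 98. The 5 Dll1 spots in columns 1 to 82 had a median BAPN change of 0.78 and the 5 in columns 83 to 164 one of 0.14. The part of position in the values of the single-spot genes was not tested beyond the correction above.

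Of the other pathway genes, 2 of 48 were past the threshold in BAPN-treated fibroblasts. Adam10 was 1.30-fold higher (log2 change 0.38 ± 0.11 (SE), limma adjusted p = 0.041), and Hes7, a Hes repressor known from the segmentation clock, was 1.68-fold lower (-0.75 ± 0.12, limma adjusted p = 0.00799). Adam10 lost its call within either slide alone, with quantile normalization, and without vehicle fibroblast replicate 2 or 3 or any 1 of the BAPN arrays. Hes7 kept its call without each array in turn and was not past the threshold on slide 1 alone.

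In ATII cells, BAPN against vehicle gave 0 of the 10 genes past the threshold, and 0% of 32045 features were. At an unadjusted p under 0.05 limma gave 0 of the 10 genes and 3333 features. The lowest limma adjusted p among the 10 was 0.471, for Hey1, which changed by -0.39 (95% interval -0.88 to 0.10). Of the 10 intervals, 9 lay within a 2-fold change in either direction, and that of Heyl reached -1.13. Jag1 changed by -0.14 (-0.45 to 0.17), Notch2 by 0.00 (-0.28 to 0.28) and Hes1 by -0.03 (-0.40 to 0.33). Of the other pathway genes, 0 of 48 passed.

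The BAPN effect was then compared between the cell types. For 0 of the 10 genes did the difference, ATII minus fibroblasts, pass the threshold, and 0% of 34287 features did, with 4731 at an unadjusted p under 0.05 by limma. Jag1 had the lowest p of the 10, with a difference of -0.51 (95% interval -0.97 to -0.05, limma adjusted p = 0.319). Heyl had the widest interval, from -2.43 to 0.19 around -1.12 (limma adjusted p = 0.43).

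**Figure D5:**
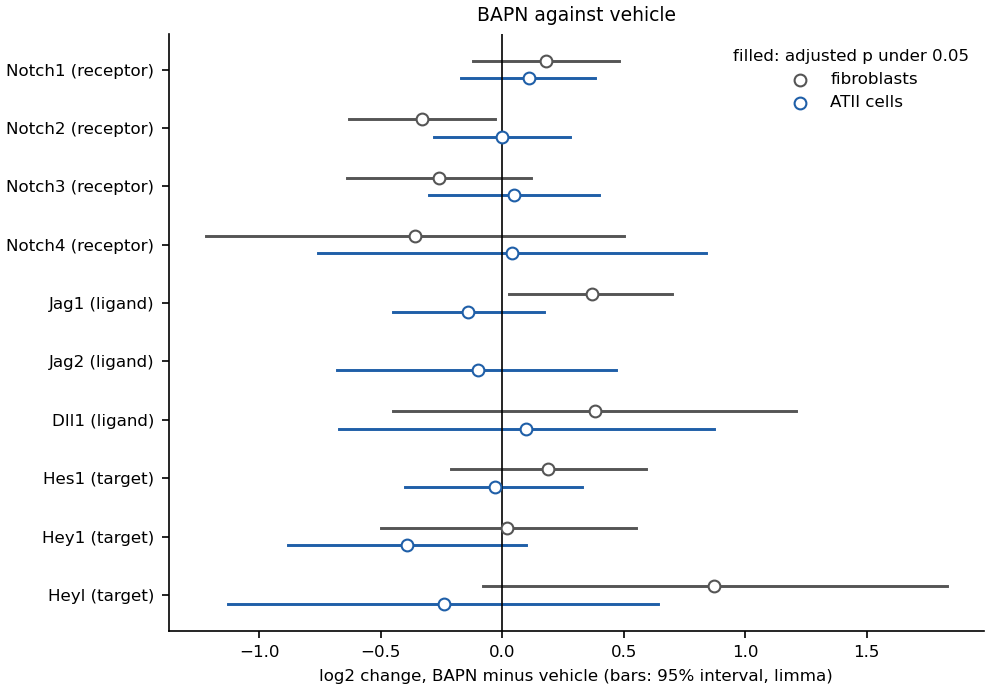
Log2 change, BAPN minus vehicle (x axis), of the 10 genes in fibroblasts (grey) and ATII cells (blue), with 95% intervals from limma; open points missed the adjusted p of 0.05, and Jag2 was not tested in fibroblasts. All points are open, and the fibroblast interval of Heyl reaches 1.83.

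The genes whose level followed a member most closely were taken over all 15 arrays, from 18377 gene symbols. For Jag1 these were Mex3a (Pearson r = 0.996), Nat8l (0.995) and Ttll5 (0.994), and for Heyl they were St8sia2 (0.989), R3hdml (0.983) and Glrp1 (0.983). For Notch3 they were Rab11fip3 (0.890), Aldh1a7 (0.889) and Disp2 (0.875). The arrays fall into 2 cell types, apart in Jag1 and Heyl, and all share the percentile scaling, so these values describe the arrays together and carry no test.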

How the data were processed

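Total RNA was measured on 15 Agilent 1-colour arrays. Per the file headers, each file holds the scanner's fluorescence intensity per spot, with the processed signal already background-subtracted by Agilent Feature Extraction (version 10.7.3.1, per the submitters' processing notes). The authors' deposited series table holds log2 values, which correlated with the same array's scanner values at r of at least 0.999 and had a median of 5.96 in each column. The sorted values of its columns differed by at most 0.0032, as quantile normalization between arrays gives; the background step is not given in the sources used here, and the table served as an alternative.

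From the processed intensity, log2 values minus each array's 75th percentile were computed, without control spots or outlier-flagged spots, and spots of a probe were averaged. For each gene the probe of highest mean over all arrays was used. Of 55681 probes, 27428 were named through their accession, 3483 through the listed symbol and 507 through a synonym, and 24263 stayed unnamed; 469 lacked a value on some array and were dropped. Features with 3 or more arrays well above background, among the groups compared, were tested. One limma fit (version 3.58.1, R 4.3.3) of the 4 group means over all 15 arrays gave log2 changes, with two-sided p-values and Benjamini-Hochberg adjustment over all features tested. The number of arrays limits the precision. On simulated arrays of the same size, 69% of changes of 1 log2 unit between ATII cells and fibroblasts with vehicle were recovered, and 53% for BAPN in fibroblasts. The changes were simulated in a small share of features, all well above background on every array. Recovery for genes near background, such as Jag2, Dll1 and Heyl, was not simulated. Nor did the simulation match the larger share of features that differed in the data.

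The members and the pathway and marker lists were chosen with earlier results of these data known. All 10 members are named. Of each pathway role list, up to 3 genes with the largest change among those past the threshold are named per comparison. For likeness, the member of each role that differed most between cell types with vehicle was used. Alternatives covered normalization, background correction, filters, probes, spot position, slide, replicate number and leaving out each array. Promoters came from the RefSeq tables of GRCm38.p6, and probe positions (mm9) from the array files; placement in exons or UTRs was not analysed here.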

Additional observations from a re-analysis of the deposited data

Results flagged for a closer look

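In 2 sets of arrays a value lay far from the others of its group. Jag1 on vehicle ATII replicate 1 was 3.96, where the other 3 arrays lay between 4.07 and 4.09, and Dll1 on the same array was -1.55, where the others lay between -2.52 and -2.48. The gap to the nearest array was 0.841 of the group's range for Jag1 and 0.959 for Dll1, against a critical value of 0.829 for 4 arrays. Of 30 sets of 4 arrays examined this way, 2 were set apart, and chance sets apart about 1 in 20. Without that array, the vehicle difference between the cell types was 3.59 for Jag1 (limma adjusted p = 1.42e-08) and 1.97 for Dll1 (limma adjusted p = 0.00124).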

How the results depend on the processing

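Settings were changed 1 at a time. In vehicle cultures, 8 members and 23 other pathway genes differed between the cell types; requiring signal above background on every array compared left 5 members (Hes1, Hey1, Jag1, Notch1 and Notch3 among fewer testable genes), slide 1 alone gave 5 members (Dll1, Hey1, Heyl, Jag1 and Notch4) and 14 pathway genes, and slide 2 alone 2 members (Hey1 and Jag1) and 6 pathway genes, with fewer arrays. With BAPN, 6 members and 20 pathway genes became 2 members (Heyl and Jag1) and 2 pathway genes on slide 2 alone. For BAPN in fibroblasts, 0 members became 1 (Notch2) under quantile normalization, in the deposited series table and after the position correction. There the 2 pathway genes became 1 under quantile normalization, in the deposited table, without the filter and with the compared groups alone, 0 on slide 1 alone and 5 on slide 2 alone. For BAPN in ATII cells, 0 pathway genes became 2 on slide 2 alone. Leaving out 1 array at a time gave 0 to 1 members (Jag1, without vehicle fibroblast replicate 1) and 1 to 2 pathway genes for BAPN in fibroblasts, 7 to 8 and 5 to 7 members for the cell types with vehicle and BAPN, Jag2 being above background on too few arrays to be tested without BAPN ATII replicate 1, 3 or 4, and 0 members in the other comparisons. The causes were not tested.

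Features past the threshold for BAPN in fibroblasts numbered 4310, but 575 on slide 1 alone, 2304 with the compared groups alone, and 1149, 1991, 1779 and 2004 without BAPN replicate 2 or 4 or vehicle replicate 2 or 4. The 10169 features between cell types with vehicle were 6495 and 4734 on slides 1 and 2 alone, and the 9458 with BAPN were 1836 on slide 2 alone. For BAPN in ATII cells 0 became 3168 on slide 2 alone and at most 1 when an array was left out, and for the difference of effects 0 became 122 on slide 1 alone and 294 without BAPN ATII replicate 4. For BAPN in fibroblasts, 18.3% of the calls were higher with BAPN; this share was 19.3% with quantile normalization, 9.8% with normexp, 30.8% after position correction, 70.6% on slide 1 alone, 36.4% on slide 2 alone and 2.6% with the compared groups alone.

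With the replicate block, the pathway genes past the threshold for BAPN in fibroblasts fell to 0 and features to 0, and members stayed at 0 for BAPN in both cell types. Deviations from the group means correlated between same-numbered arrays at -0.08, 0.10 and -0.04 in fibroblasts and 0.23, -0.15 and -0.15 in ATII cells. Between arrays of unlike number they correlated at -0.38 to 0.28 and at -0.25 to 0.30. With groups of 3 or 4 arrays, these values cannot tell whether the numbers pair the samples. For the cell types a block shared across them, chosen after seeing the data, kept 8 and 6 members; the unnumbered array was left out.

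Of the members' single values between cell types, 185 of 204 (vehicle) and 186 of 194 (BAPN) were classed as unchanged. For BAPN in fibroblasts and ATII cells, 168 of 176 and 204 of 209 were. A value in this class stayed on the same side of the threshold, but one that missed the threshold could change sign. Values that missed the threshold changed sign 0 (vehicle) and 4 (BAPN) times between cell types, and 14 and 30 times for BAPN in fibroblasts and ATII cells. Jag2, Dll1 and Heyl were below or near background on fibroblast arrays. Of the members' changes between cell types, theirs shrank most in log2 units under normexp. The part of background in this was not tested.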
